A study of Mus musculus with 12 samples.

Results

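Fgfbp1, Tgm1, Mme and Klhdc7a, 4 of the 24480 genes in the deposited tables, were chosen by their measured RNA levels, which were markedly lower after knockdown (KD) of YAP and higher in cells overexpressing (OE) YAP. The choice therefore used the measured values of both comparisons, and the loss and gain of these genes are given as a description without a test. What the choice did not use was tested or measured separately: the length of their transcripts, their genomic neighbors, the relatives of each gene and the letters of their promoters. The 2 control groups were also compared with each other, but their libraries entered the choice.

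YAP, encoded by Yap1, is a transcriptional coactivator of the Hippo pathway. It has no DNA-binding domain of its own and reaches its target genes mainly through the TEAD transcription factors, while the Hippo kinases keep it in the cytoplasm. The 4 genes are best known from epithelia and cell surfaces, and encode a carrier of fibroblast growth factors, a membrane peptidase, a protein cross-linking enzyme and a kelch-repeat protein.

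RNA was sequenced from E14Tg2a mouse embryonic stem cells (ESCs), a feeder-independent line grown in serum and leukemia inhibitory factor, after transient transfection with a lipid reagent. Cells of the KD experiment received scrambled siRNAs (CTR KD) or siRNAs against mouse YAP (YAP KD). Cells of the OE experiment received a plasmid encoding mouse YAP under the CAG promoter (YAP OE) or a control plasmid, which the labels describe as encoding GFP and the study's text as empty (CTR OE). Each of the 4 groups had 3 libraries from independent experiments, and all 12 libraries come from the same line. The share of cells that took up siRNA or plasmid is not given in the sources used here, so a library averages transfected and other cells. The libraries held 42900000 to 57200000 expected counts, which are read counts per gene as estimated by RSEM, and 17611 to 18163 genes had at least 1 count. Levels below are normalized counts (CPM, counts scaled to a common library total) scaled by the TMM method over all 12 libraries. In such bulk RNA, fewer cells expressing a gene and less RNA per cell cannot be told apart.

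The labelled cell type was checked first. All 9 markers of ESCs on the list, Pou5f1, Nanog and Sox2 among them, were above 1 CPM in every group, and their summed level was 5613 to 6208 CPM over the 12 libraries. The 8 keratinocyte markers, which would mark the stratified epithelium in which Tgm1 is best known, summed to 2.18 to 3.14 CPM. The group means of Krt5 and Trp63, which define basal keratinocytes, were at most 0.0183 and 0.0594 CPM. In YAP KD libraries this keratinocyte sum was 2.18 to 2.35 CPM, below the 2.60 to 3.12 CPM of CTR KD, and it was 2.54 to 3.14 CPM in YAP OE against 2.37 to 2.57 CPM in CTR OE. None of its 3 testable members passed edgeR's test in either experiment (1 in KD and 0 in OE at an unadjusted p under 0.05), and the part of this sum in the results below was not tested. The simple epithelial genes Cdh1 and Epcam, in contrast, stood at 226 and 138 CPM in CTR KD. The name epithelial therefore refers to where the 4 genes are known from, and the cells measured were ESCs.

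Fgfbp1 encodes a secreted protein that binds fibroblast growth factors (FGFs) held in the matrix and releases them to their receptors. The gene lies at chr5:43978858-43981828 on the minus strand of mm10 (GRCm38). RefSeq for GRCm38.p6 gives the following 250 bases upstream of its listed transcription start (chr5:43981800-43982049, minus strand). That start lies inside the span above, so the last of these bases do too. They are shown because they hold neither the TEAD motif nor the AP-1 motif described below. Capitals mark a CCAAT box in reverse.
Fgfbp1: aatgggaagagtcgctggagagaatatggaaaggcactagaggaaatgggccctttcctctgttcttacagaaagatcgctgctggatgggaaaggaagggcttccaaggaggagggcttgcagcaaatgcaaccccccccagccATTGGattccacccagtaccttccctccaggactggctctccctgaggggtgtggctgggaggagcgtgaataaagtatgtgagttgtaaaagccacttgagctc
Fgfbp1 stood at 10.8, 10.5 and 10.5 CPM in the CTR KD libraries and at 5.41, 5.30 and 5.24 CPM in the YAP KD libraries. It stood at 11.8, 11.4 and 10.5 CPM in CTR OE and at 16.3, 15.7 and 16.6 CPM in YAP OE. All YAP KD libraries were below, and all YAP OE libraries above, every control library, with no overlap between groups. The log2 fold change was -0.995 (SE 0.064, n = 3 against 3) in YAP KD, which left 50.2% of the control level, and 0.53 (SE 0.060) in YAP OE, or 144% of control. Its replicates were close to each other in the KD experiment, where the SD was 1.87% of the mean in CTR KD and 1.59% in YAP KD.

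Mme encodes neprilysin (CD10), a zinc endopeptidase of the M13 family that cleaves small signaling peptides at the cell surface. The gene lies at chr3:63295211-63383713 on the plus strand, and RefSeq lists 3 promoter windows for it. The 250 bases before the outermost start (chr3:63294961-63295210, plus strand) are shown with a GC box in capitals, followed by the 30 bases of the second window (chr3:63295628-63295657, plus strand) that hold the TEAD motif, in capitals, at -232 to -227 from that window's start site.
Mme: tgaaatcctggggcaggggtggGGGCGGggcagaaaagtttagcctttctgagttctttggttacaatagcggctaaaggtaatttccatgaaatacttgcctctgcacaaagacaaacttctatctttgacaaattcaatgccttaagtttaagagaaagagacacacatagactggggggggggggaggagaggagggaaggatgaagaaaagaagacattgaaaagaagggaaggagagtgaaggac
Mme second window: gtgagggtccaaGGAATGcgggcttcccgg
Mme stood at 82.2, 67.8 and 83.3 CPM in CTR KD and fell to 36.7, 41.6 and 37.7 CPM in YAP KD. In the OE experiment it stood at 65.6, 75.3 and 72.3 CPM in CTR OE and at 94.8, 93.3 and 89.3 CPM in YAP OE. The groups did not overlap in either experiment, although CTR KD replicate 2 lay well below the other CTR KD libraries. The log2 fold change was -1.01 (SE 0.081) in YAP KD, 49.8% of control, and 0.38 (SE 0.049) in YAP OE, 130.2% of control. Mme thus had the largest CPM of the 4 genes and the smallest gain.

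Tgm1 encodes transglutaminase 1, the enzyme that cross-links proteins of the cornified envelope beneath the membrane of keratinocytes. The gene lies at chr14:55700009-55713921 on the minus strand and has 2 RefSeq promoter windows. Both lie inside this span, so the bases before its outer end were not searched. The last 30 bases before the start of the first window (chr14:55713493-55713522, minus strand) are shown because they carry a GC box, in capitals and in reverse.
Tgm1: ataaactgcttacccggcCCGCCCtacacc
Tgm1 stood at 17.4, 17.7 and 17.0 CPM in CTR KD and at 11.04, 9.69 and 10.1 CPM in YAP KD. It stood at 20.3, 20.7 and 20.4 CPM in CTR OE and at 27.9, 25.99 and 29.9 CPM in YAP OE. Again no YAP library overlapped the controls of its experiment. The log2 fold change was -0.76 (SE 0.062) in YAP KD, 59.2% of control, the smallest loss among the 4 genes, and 0.45 (SE 0.053) in YAP OE, 137% of control.

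Klhdc7a encodes a protein with kelch repeats. It lies at chr4:139962173-139968026 on the minus strand, and its only transcript in the files, 5854 bases long, equals the span of the gene, which therefore has no intron. The 250 bases upstream of its start (chr4:139968027-139968276, minus strand) are shown without capitals, as they held none of the 4 motifs searched.
Klhdc7a: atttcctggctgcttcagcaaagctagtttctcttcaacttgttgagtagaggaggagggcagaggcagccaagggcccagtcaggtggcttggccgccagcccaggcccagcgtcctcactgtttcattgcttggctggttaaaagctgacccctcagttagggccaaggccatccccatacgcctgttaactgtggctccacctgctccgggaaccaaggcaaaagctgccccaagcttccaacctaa
Klhdc7a stood at 7.15, 8.38 and 8.14 CPM in CTR KD, and at 3.06, 3.25 and 3.27 CPM in YAP KD. In the OE experiment it stood at 5.04, 5.91 and 5.95 CPM in CTR OE and at 7.07, 8.23 and 10.8 CPM in YAP OE. The YAP OE libraries were above all CTR OE libraries but not above those of CTR KD, whose 7.15 to 8.38 CPM they overlapped. They also spread widely, with an SD of 21.7% of the mean, against 3.59% in YAP KD. The log2 fold change was -1.30 (SE 0.089) in YAP KD, 40.6% of control and the largest loss of the 4 genes, and 0.63 (SE 0.13) in YAP OE, 155% of control. Without YAP OE replicate 3 the gain was 0.43, and without YAP OE replicate 1 it was 0.77. Klhdc7a was also the gene with the fewest reads, 129 to 175 in the YAP KD libraries.

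**Figure D1:**
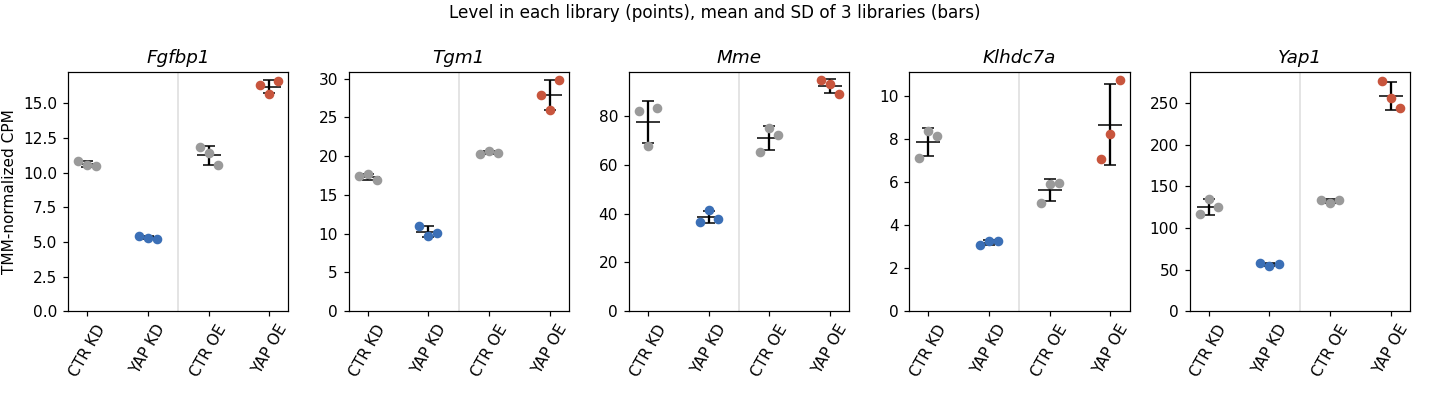
Level of Fgfbp1, Tgm1, Mme, Klhdc7a and Yap1 in each library, as TMM-normalized CPM on a linear axis from 0. Points are libraries, and bars give the mean and SD of 3 libraries per group. For each gene the 3 YAP KD points lie below and the 3 YAP OE points above the control points of the same experiment.

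Yap1 itself set the scale for these changes. It stood at 116, 135 and 125 CPM in CTR KD and at 58.5, 54.9 and 56.6 CPM in YAP KD. It stood at 134, 130.2 and 133 CPM in CTR OE and at 277, 256 and 244 CPM in YAP OE. The log2 fold change of Yap1 was -1.14 (SE 0.057) in YAP KD, 45.3% of control, and 0.97 (SE 0.047) in YAP OE, 195% of control. The plasmid carries the coding sequence of mouse YAP, so its transcripts and those of the gene at chr9:7931999-8004638 were counted together.

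Relative to Yap1, the losses of Klhdc7a, Mme and Fgfbp1 were close in size, the loss of Tgm1 was smaller, and all 4 gains were smaller. On the log2 scale, the loss of Klhdc7a was 1.14 times that of Yap1 (SE 0.096), that of Mme was 0.879 times (SE 0.083), that of Fgfbp1 was 0.870 times (SE 0.070) and that of Tgm1 was 0.660 times (SE 0.063). The gain of Klhdc7a was 0.654 times the gain of Yap1 (SE 0.13), that of Fgfbp1 was 0.547 times (SE 0.067), that of Tgm1 was 0.467 times (SE 0.060) and that of Mme was 0.394 times (SE 0.054). Loss and gain thus mirrored each other in direction but not in size. The gain amounted to 0.597 (SE 0.086) of the loss for Tgm1, 0.531 (SE 0.069) for Fgfbp1, 0.485 (SE 0.10) for Klhdc7a and 0.379 (SE 0.057) for Mme. The same ratio was 0.845 (SE 0.059) for Yap1. Within the YAP OE group the order of the libraries was not shared: YAP OE replicate 3 had the lowest Yap1 and the lowest Mme, but the highest Fgfbp1, Tgm1 and Klhdc7a.

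**Figure D2:**
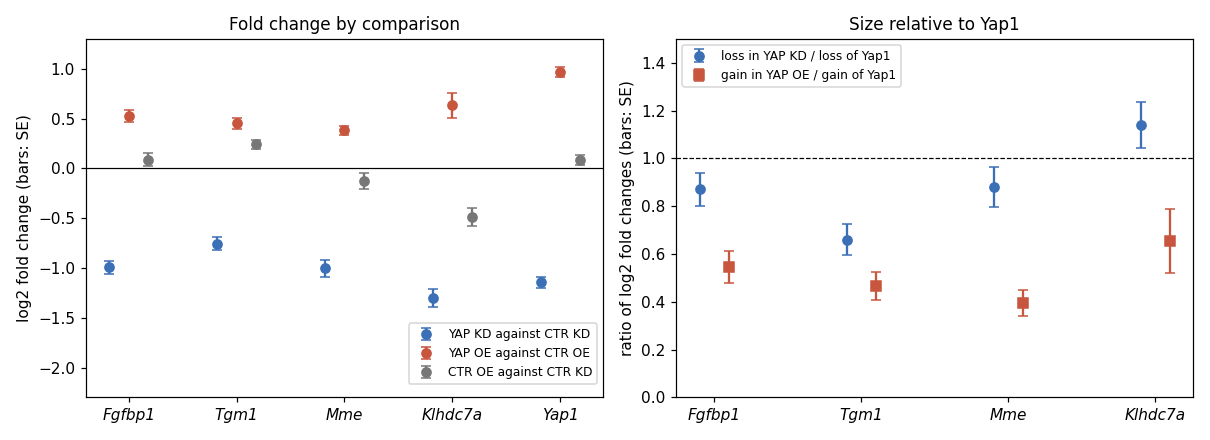
Left, log2 fold change of each gene with its SE in YAP KD against CTR KD, YAP OE against CTR OE and CTR OE against CTR KD. Right, the loss and gain of each gene divided by those of Yap1 on the log2 scale, with SE, where the dashed line marks the size of Yap1's own change. The gain ratios lie between 0.394 and 0.654, and the loss ratios between 0.660 and 1.14.

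Among all genes, 5.49% of the 14606 tested in the KD experiment passed an adjusted p of 0.05 in edgeR's quasi-likelihood test, 2.78% being lower and 2.71% higher in YAP KD. In the OE experiment 2.13% of 14804 genes passed, 1.66% higher and 0.473% lower in YAP OE. All 4 members were called lower in YAP KD and higher in YAP OE, and none overlapped its controls, which the choice of the genes fixes. The share of all genes without such overlap was not determined, so the lack of overlap is only a description. Ordered by log2 fold change from the lowest in YAP KD, Klhdc7a was at rank 9, Yap1 at 14, Mme at 22, Fgfbp1 at 25 and Tgm1 at 68. Ordered from the highest in YAP OE, Yap1 was at rank 61, Klhdc7a at 177, Fgfbp1 at 266, Tgm1 at 399 and Mme at 551. The 4 genes were thus nearer the end of the order in YAP KD than in YAP OE. Of the 14521 genes tested in both experiments, only 2 lay beyond Klhdc7a in both directions at once, 7 beyond Fgfbp1, 7 beyond Mme and 22 beyond Tgm1.

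**Figure D3:**
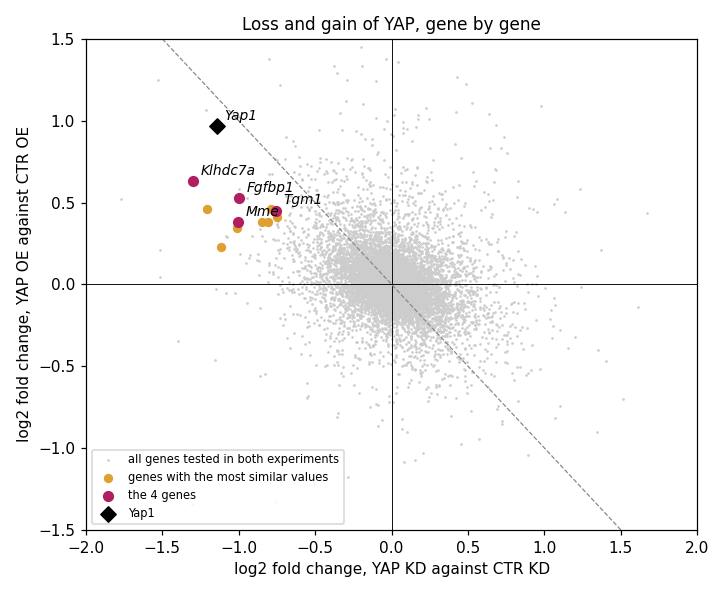
Log2 fold change in YAP KD (horizontal) against that in YAP OE (vertical) for the 14521 genes tested in both experiments, of which 6 lie outside the plotted range. The dashed line marks an equal and opposite change. The 4 genes, Yap1 and the genes with the most similar values all lie on the upper left, below the dashed line, so that the loss exceeds the gain.

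Levels of different genes can be compared only per length. Per kilobase of effective length, Mme was the most abundant of the 4 in CTR KD with 13.7 ± 1.57 CPM per kb (SD, n = 3), followed by Fgfbp1 with 10.4 ± 0.201, Tgm1 with 6.71 ± 0.159 and Klhdc7a with 1.39 ± 0.114. Yap1 stood at 31.6 ± 2.37 CPM per kb. The libraries of neighboring genes in this order did not overlap in CTR KD. The order was the same in the other 3 groups, but Mme and Fgfbp1 were closer in YAP OE, at 16.3 ± 0.523 and 15.9 ± 0.588 CPM per kb, where their ranges of 15.8 to 16.8 and 15.2 to 16.3 overlapped. In CTR OE the lowest Mme library and the highest Fgfbp1 library met as well, both at 11.6 CPM per kb.

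The comparison of CTR OE with CTR KD asked whether the starting levels were equal in the 2 experiments. It was not itself used to choose the genes, but its libraries were. In this comparison 0.733% of 14744 genes passed the test. Klhdc7a was 0.48 lower on the log2 scale in CTR OE (SE 0.090, edgeR adjusted p = 0.0467), 71.5% of the CTR KD level, with no overlap, and was the only one of the 4 called. This call rested on the setting, since it held in 5 of 11 alternative analyses, over which the adjusted p was 0.00352 to 0.133, and in 2 of 6 with a library left out, being lost without CTR KD replicate 3 or any one CTR OE library. Tgm1 was 0.24 higher in CTR OE (SE 0.046), again without overlap, but did not pass (edgeR adjusted p = 0.0557). Fgfbp1 and Mme differed by 0.089 (SE 0.063, edgeR adjusted p = 0.703) and -0.13 (SE 0.079, edgeR adjusted p = 0.661), and their control libraries overlapped, as did those of Yap1 (0.084, SE 0.052, edgeR adjusted p = 0.646). Without CTR KD replicate 2 the call extended to Tgm1 (0.25, edgeR adjusted p = 0.0179) and Mme (-0.22, edgeR adjusted p = 0.0281). The kind of nucleic acid transfected and the experiment itself cannot be told apart here, and these controls are the ones used in the comparisons above. A choice of large losses favors high CTR KD levels, and one of large gains favors low CTR OE levels. The tests of the 4 genes between the controls are therefore not independent of their choice.

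RSEM also reports for each gene the mean length of its transcripts weighted by their abundance, which shifts when isoforms are used differently. Fgfbp1 measured 1199.0 bases in CTR KD and 1198.8 in YAP KD, Tgm1 2761.9 and 2764.2, and Mme 5843.5 and 5844.6. In the OE experiment the means of CTR OE and YAP OE were 1198.5 and 1198.9 bases for Fgfbp1, 2764.1 and 2761.7 for Tgm1, and 5838.4 and 5837.6 for Mme. None of these 3 genes passed the test by limma in either experiment (adjusted p = 1 in each), and Klhdc7a, with a transcript of fixed length, could not be tested. Over all genes, 0% of 3837 passed in the KD experiment, with 229 at an unadjusted p under 0.05, and 0.0257% of 3889 in the OE experiment, with 221 at an unadjusted p under 0.05. The 1 gene called was Yap1, whose mean length went from 4143.2 bases with the control plasmid to 4165.1 bases with the YAP plasmid (limma adjusted p = 0.00632). This call was lost in 5 of 6 analyses with a library left out, while the difference stayed between 0.0075 and 0.0077 on the log2 scale.

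The promoters printed above were searched on both strands for the TEAD core motif GGAATG, the AP-1 motif TGACTCA, the GC box GGGCGG and the CCAAT box CCAAT, in windows from 250 bases before to 50 bases after each RefSeq start. The TEAD core was found in the second window of Mme and in that of Yap1, and not in the windows of Fgfbp1, Tgm1 and Klhdc7a. It occurs in 14.7% of all 32851 windows. The AP-1 motif, present in 5.2% of all windows, was found at a single place in Mme that its second and last windows share. The GC box occurs in 35.7% and the CCAAT box in 37.4% of all windows. The upstream 250 bases of Mme were 45.6% G or C at the first start and 73.2% and 73.6% at the others, against 53.6% for Fgfbp1, 58.0% for both windows of Tgm1, 56.8% for Klhdc7a and a median of 52.4% over all windows. A match of letters is no evidence of binding, and their absence from these windows says nothing about TEAD factors bound elsewhere.

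The relatives of each gene, listed by their known role, were examined in the same tests. Of the FGFs, FGF receptors and matrix partners of Fgfbp1, 8 could be tested in the KD experiment and 9 in the OE experiment, and none passed edgeR's test (1 and 2 at an unadjusted p under 0.05, and 0 by DESeq2 or limma-voom). This was not so in every setting, since 1 gene passed in the KD experiment in 4 of 11 alternatives, among them relative log expression factors, and without CTR KD replicate 2, and 1 in the OE experiment without a filter. Fgfr2, a receptor for FGFs of epithelia, came nearest, at -0.18 (SE 0.045, edgeR adjusted p = 0.0526) and 0.17 (SE 0.044, edgeR adjusted p = 0.0659). Fgf1, which Fgfbp1 can bind, was at 14.7 ± 0.140 CPM in CTR KD against 14.5 ± 0.0742 in YAP KD, and Fgf2 was at or near 0, with group means of at most 0.0467 CPM.

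Of the other surface peptidases, which include the M13 members Mmel1, Ece1, Ece2 and Phex, none of 8 passed in the KD and none of 9 in the OE experiment by edgeR (2 and 0 at an unadjusted p under 0.05, and 0 by DESeq2 or limma-voom). Ece1, an endothelin-converting enzyme, was at 27.5 ± 3.50 CPM in CTR KD against 28.9 ± 0.931 in YAP KD. Mmel1, a close relative of Mme, was at 1.80 ± 0.0834 and 2.40 ± 0.412 CPM.

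Among transglutaminases and genes of the cornified envelope, 1 of 7 tested was higher in YAP KD and none of 8 passed in YAP OE by edgeR (2 at an unadjusted p under 0.05, and 0 by DESeq2 or limma-voom, but 1 without a filter and 1 without YAP OE replicate 1). The gene higher in YAP KD was Tgm3, another epidermal transglutaminase, by 0.52 (SE 0.12, edgeR adjusted p = 0.0342), from 1.89 ± 0.209 to 2.71 ± 0.139 CPM, opposite in direction to Tgm1. That call held in 8 of 11 alternatives, but not by DESeq2, and was lost in 5 of 6 analyses with a library left out, those without CTR KD replicate 1 or 3 or any one YAP KD library. Ivl and Lor, substrates of Tgm1 in skin, had group means of at most 0.00791 and 0.0731 CPM, and Tgm5, Tgm7 and Sprr1b had no read in any library. Evpl and Ppl, which encode the envelope proteins envoplakin and periplakin, stood at 3.40 ± 0.619 and 4.64 ± 0.329 CPM in CTR KD and did not pass in either experiment. Tgm2, the widely expressed transglutaminase, was at 9.84 ± 0.488 CPM in CTR KD against 9.47 ± 0.0381 in YAP KD.

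Of the other Klhdc genes, none of 8 passed in either experiment by edgeR (4 in KD and 1 in OE at an unadjusted p under 0.05, and 0 by DESeq2 or limma-voom, but 1 in KD in 2 of 11 alternatives). Klhdc7b, the closest by name, was at or near 0, with group means of at most 0.0519 CPM. Klhdc2 and Klhdc10, both substrate receptors of ubiquitin ligases, stood at 31.2 and 58.6 CPM in CTR KD and at 28.8 and 54.6 CPM in YAP KD. The median log2 fold changes of the 4 lists of relatives were -0.12, 0.035, -0.054 and -0.074 in YAP KD, in the order described, against 0.0058 over all genes. In YAP OE they were -0.025, -0.046, 0.095 and 0.065, against -0.0025.

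**Figure D4:**
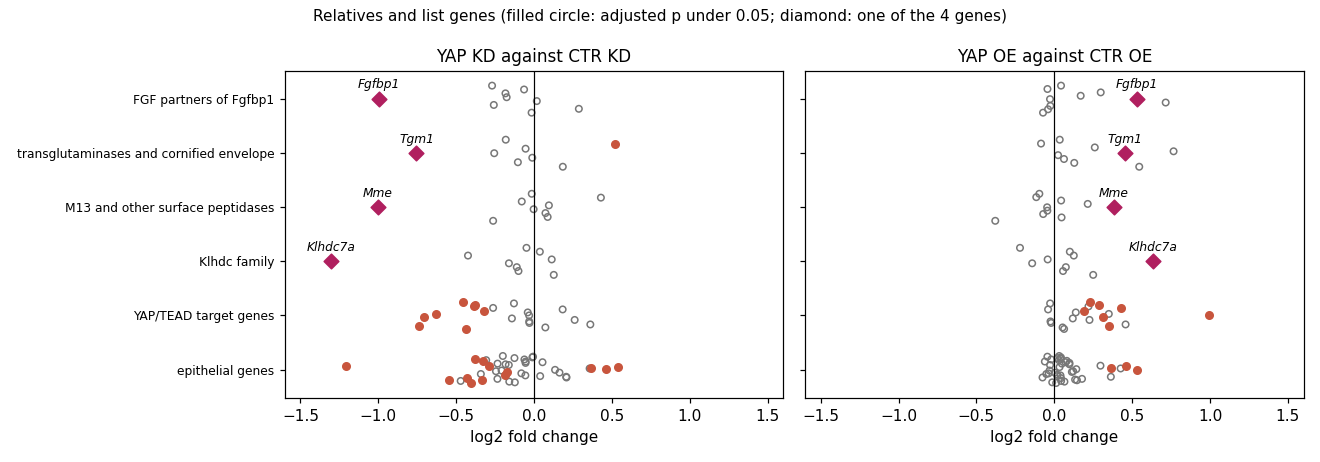
Log2 fold change of the genes on 6 lists in YAP KD against CTR KD (left) and YAP OE against CTR OE (right). Circles are list genes, filled where the edgeR adjusted p was under 0.05, and diamonds are the 4 genes beside their relatives. In YAP KD each diamond lies to the left of all its relatives, which the choice of the 4 genes for a marked loss in large part fixes. In YAP OE some relatives of Fgfbp1 and Tgm1 lie further right without passing the test.

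On the side of the regulators, Yap1 was the only one of 7 YAP and TEAD factors that passed edgeR's test in both experiments, where 4 in KD and 5 in OE had an unadjusted p under 0.05. Vgll4, a cofactor that competes with YAP for TEAD factors, was at -0.46 in YAP KD and 0.42 in YAP OE (SE 0.14 and 0.16, edgeR adjusted p = 0.0993 and 0.253), and Tead4 at -0.18 and 0.15 (SE 0.063 and 0.062, edgeR adjusted p = 0.145 and 0.282). Wwtr1, which encodes the paralog TAZ, was at 24.98 ± 0.153 CPM with scrambled siRNA and 26.6 ± 1.33 CPM after YAP knockdown (edgeR adjusted p = 0.364), and at 27.9 ± 0.334 CPM in CTR OE against 30.2 ± 1.53 in YAP OE (edgeR adjusted p = 0.277). Tead2, a DNA-binding partner, was 0.21 higher in YAP KD (SE 0.042, edgeR adjusted p = 0.0211), a call lost in 5 of 6 analyses with a library left out, those without CTR KD replicate 1 or 3 or any one YAP KD library.

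Known YAP/TEAD target genes give a second scale. Of 19 tested, 8 were lower and none higher in YAP KD, and 7 were higher and none lower in YAP OE. With a library left out the count was 5 to 7 in KD, 5 being reached without YAP KD replicate 2 or 3, and 4 to 7 in OE, 4 being reached without CTR OE replicate 3. On log2(TPM + 1) it was 2 and 1. The median log2 fold change was -0.14 in YAP KD and 0.22 in YAP OE. Amotl2, an angiomotin that binds YAP at junctions, fell by 0.74 on knockdown (SE 0.058, edgeR adjusted p = 0.000169) and was higher by 0.35 on overexpression (SE 0.040, edgeR adjusted p = 0.000209). Ctgf, a matricellular protein, fell by 0.71 (SE 0.058, edgeR adjusted p = 0.000221) and rose by 0.31 (SE 0.046, edgeR adjusted p = 0.00150). Ajuba and Fstl1 fell by 0.44 and 0.32 in YAP KD (SE 0.054 and 0.038, edgeR adjusted p = 0.00229 and 0.00194). Cyr61 was the largest gain on the list, 0.995 (SE 0.067, edgeR adjusted p = 1.18e-06), with -0.032 (SE 0.13, edgeR adjusted p = 0.933) in YAP KD. Ptpn14 rose by 0.29 in YAP OE (SE 0.045, edgeR adjusted p = 0.00246). The losses of the 4 chosen genes were no smaller than the largest loss on this list, which that of Tgm1 equalled within its SE. Because these genes were chosen for a marked loss, that order was in large part fixed by the choice. Their gains lay between those of Amotl2 and Cyr61. Lats2, at 0.43 (SE 0.080, edgeR adjusted p = 0.00902), gained more than Mme, a call lost on log2(TPM + 1) and without CTR OE replicate 3. Ankrd1 was at 0.46 without passing (SE 0.27, edgeR adjusted p = 0.505), above Mme and Tgm1. Edn1 was lower in YAP KD as well, but its call was lost with any 1 of the 6 libraries left out.

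Of the 40 epithelial genes, all tested, 10 were lower and 3 higher in YAP KD, and 3 were higher and none lower in YAP OE. The median was -0.16 in YAP KD and 0.043 in YAP OE. The laminin chain Lamb3 fell by 1.21 in YAP KD (SE 0.16, edgeR adjusted p = 0.00303) and rose by 0.46 in YAP OE (SE 0.089, edgeR adjusted p = 0.0109), the latter being lost without CTR OE replicate 1 or 2. The tight junction claudin Cldn4 fell by 0.54 (SE 0.057, edgeR adjusted p = 0.000882), the desmoglein Dsg2 by 0.43 (SE 0.054, edgeR adjusted p = 0.00241) and the epithelial sorting adaptor Ap1m2 by 0.41 (SE 0.054, edgeR adjusted p = 0.00300), and in YAP OE these 3 had changes of 0.15, 0.043 and 0.012 that did not pass. The keratin Krt8 was higher in both experiments, by 0.37 in YAP KD (SE 0.052, edgeR adjusted p = 0.00444) and 0.36 in YAP OE (SE 0.056, edgeR adjusted p = 0.00224), and its partner Krt18 rose by 0.53 in YAP OE (SE 0.074, edgeR adjusted p = 0.00101). Krt8 also differed between the 2 control groups, at 34.4 CPM in CTR KD against 54.7 CPM in CTR OE. It was called there in all 11 alternatives, as were Krt7, Krt18 and Krt19. The adherens junction gene Cdh1 and Epcam did not pass in either experiment. The number called in YAP KD was between 6 and 14 with a library left out, being 6 when CTR KD replicate 3 was omitted, 7 for YAP KD replicate 2 and 8 for YAP KD replicate 1 or 3. On log2(TPM + 1) it was 2 in KD and 1 in OE. That in YAP OE was between 2 and 5, being 5 without YAP OE replicate 1.

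Markers of other cell types moved with the groups in part. The 7 trophoblast markers summed to 57.5 to 64.2 CPM in CTR KD against 77.4 to 86.8 in YAP KD, of which Tfap2c alone made up 57.5 and 79.5 CPM on average, and Tfap2c was the 1 gene of that list called in YAP KD (0.47, SE 0.057, edgeR adjusted p = 0.00217). Eomes and Ascl2 went the other way in YAP KD, at -0.32 and -0.36, without passing (edgeR adjusted p = 0.497 and 0.277). In YAP OE the sum was 51.6 to 56.1 CPM against 54.7 to 58.9 CPM in CTR OE, while Cdx2 rose from 0.149 to 0.628 CPM, Gata3 from 0.285 to 1.04 CPM and Ascl2 from 1.77 to 2.63 CPM (edgeR adjusted p = 0.00159, 0.000886 and 0.0459). The 7 primitive endoderm markers summed to 98.6 to 117 CPM in CTR KD, 91.1 to 104 CPM in YAP KD, 102 to 111 CPM in CTR OE and 110 to 115 CPM in YAP OE. Of that sum Lama1 alone made up 88.7 to 104 CPM on average, and Dab2 was the 1 gene of the list called, rising from 2.66 to 4.11 CPM in YAP OE (0.63, SE 0.11, edgeR adjusted p = 0.00645). Mme (CD10) is also known as a marker of B cell precursors. The 8 early B cell markers summed to 9.15 to 10.5 CPM in CTR KD against 12.5 to 12.7 in YAP KD, and to 9.38 to 10.05 CPM in CTR OE against 7.55 to 9.20 in YAP OE, without overlap in either experiment. The 1 gene of that list called was Ebf1, a transcription factor, which rose from 7.15 to 10.9 CPM in YAP KD (0.61, SE 0.071, edgeR adjusted p = 0.00172), while Rag1 and Pax5 had group means of at most 0.00758 and 0.00643 CPM. Cd79a, Cd79b and Vpreb1 went the other way in YAP KD, at -0.57, -0.48 and -0.58, without passing (edgeR adjusted p = 0.267, 0.286 and 0.236). The 8 fibroblast markers summed to 2.57 to 2.96 CPM in CTR KD against 3.23 to 3.89 in YAP KD, also without overlap, and to 3.53 to 3.94 CPM in CTR OE against 3.76 to 4.23 in YAP OE, and none of the 5 tested passed in either experiment by edgeR (2 in KD and 1 in OE at an unadjusted p under 0.05). The part of these markers in the changes of the 4 genes was not tested.

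The 4 genes lie on different chromosomes. Of the genes beside them that were tested, 1 passed in YAP KD and none in YAP OE, where 5.49% and 2.13% of all genes passed. The nearest genes to either side of Fgfbp1, Cd38 and Prom1, changed by 0.11 and -0.25 in YAP KD, neither passing (edgeR adjusted p = 0.247 and 0.0503), although Prom1, a membrane glycoprotein of stem and epithelial cells, came close, with 14.1 to 15.6 CPM in CTR KD and no overlap with the 11.8 to 13.04 CPM of YAP KD. Beside Tgm1, Rabggta, a subunit of the enzyme that prenylates Rab proteins, fell by 0.22 in YAP KD (SE 0.054, edgeR adjusted p = 0.0485) and was at 0.082 in YAP OE (SE 0.043, edgeR adjusted p = 0.448). Whether the call of Rabggta held in other settings was not examined. On the other side of Tgm1, Tinf2 and Gmpr2 changed by -0.027 and -0.023 in YAP KD without passing. Dhx36 and Plch1 beside Mme changed by 0.062 and 0.028, and Igsf21 beside Klhdc7a by 0.45 (SE 0.14, edgeR adjusted p = 0.109), in the direction opposite to Klhdc7a and without overlap, from 2.77 to 4.28 CPM in CTR KD against 4.46 to 5.15 in YAP KD. In YAP OE the smallest edgeR adjusted p among the neighbors tested was 0.290, that of Plch1, so that none passed.

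The genes most like each member were taken as those with the smallest root mean square (RMS) difference from it over the 12 libraries, after subtracting the mean of the control libraries of the same experiment on the log2 scale. These values are the ones used to choose the members and serve as a description. Among 12391 genes, the closest to Fgfbp1 were Tek at an RMS of 0.108, D630045M09Rik at 0.111 and Fam13c at 0.139, where the median over all genes was 0.541. Tgm1 was closest to Wls at 0.0632, Fam13c at 0.0731 and Tek at 0.0785. Mme was closest to D630045M09Rik at 0.0976, Tek at 0.131 and Park2 at 0.149. Klhdc7a was closest to Lamb3 at 0.196, D630045M09Rik at 0.213 and Slc16a9 at 0.243, and so had no neighbor as near as the other members had. The RMS also takes in the spread among libraries of a group, which for Klhdc7a in YAP OE was 21.7% of the mean. The part of that spread in its distances was not tested. Among the members themselves the RMS was smallest between Fgfbp1 and Tgm1, 0.120, and largest between Tgm1 and Klhdc7a, 0.269. Tek encodes the angiopoietin receptor, Wls a carrier that Wnt proteins need for secretion, and D630045M09Rik a long noncoding RNA also called Ephemeron. Their log2 fold changes were -0.85 and 0.38 for Tek, -0.75 and 0.41 for Wls, and -1.01 and 0.34 for D630045M09Rik, in YAP KD and YAP OE. The reads of Fam13c and Park2 were not all whole numbers, so that part of them was shared with other genes.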

How the data were processed

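RNA-seq libraries of 4 groups of 3 were analysed. The authors aligned reads with STAR to mm10 and assigned them with RSEM to curated RefSeq transcripts; versions and strand setting are not given in the sources used here. The deposited tables hold expected counts per gene, estimated by the authors with RSEM and not normalized, with TPM and FPKM values and transcript lengths computed by the authors. FPKM was not used, and TPM served in 1 alternative.

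Expected counts were rounded and tested with edgeR 4.0.16 (filterByExpr, TMM, quasi-likelihood F test, Benjamini-Hochberg over all genes tested), each comparison on its own 6 libraries. The SE is the log2 fold change divided by the root of F, and SEs of ratios used the delta method. Transcript lengths were tested with limma 3.58.1 on the log2 scale, for genes with a mean of at least 50 counts. Likeness used log2(CPM + 0.5) for genes with a mean of at least 50 counts. The expected counts of the 4 genes and Yap1 were whole in every library. The fits were also run on simulated data with the same assumed spread for every gene, which the real libraries need not share. No result above rests on that run.

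The members and lists were chosen with earlier results of these data known. Named were the 4 members, Yap1, genes of the lists, with values for at most 4 called genes by smallest p per list and experiment, the nearest neighbors, and the 3 most similar genes. Values given beyond these, such as those of Fgf1, Ivl, Tgm2, Edn1, Lats2, Ankrd1, Krt8 in YAP KD and the markers, were chosen after they were seen. Libraries of the same group were not copies of each other, with a chi-square over genes of 3.54 to 25.7 per degree of freedom. Replicate numbers did not pair the libraries: deviations of libraries with the same number correlated at -0.35, -0.22 and 0.012 in the KD and 0.036, 0.062 and -0.013 in the OE experiment. Promoters came from RefSeq for GRCm38.p6, where all 4 members matched.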

Additional observations from a re-analysis of the deposited data

How the results depend on the processing

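Normalization by relative log expression, upper quartile or total counts, other filters, DESeq2 1.42.0, limma-voom, a fit over all 12 libraries and an effective length offset left the direction of every change of the 4 genes as reported. Because the 4 genes were chosen on their loss and gain, that direction and their passing in YAP KD and YAP OE were in large part fixed by the choice and are no sign of stability. In YAP OE, Tgm1 and Mme did not pass on log2(TPM + 1), and Klhdc7a did not without CTR OE replicate 1. On log2(TPM + 1), where the added 1 is large beside these levels, the YAP KD changes were -0.79 for Fgfbp1, -0.56 for Tgm1, -0.84 for Mme, -0.41 for Klhdc7a and -1.06 for Yap1, the gain of Klhdc7a was 0.25, the losses of Tgm1 and Klhdc7a were 0.529 and 0.390 of that of Yap1, and the gain of Klhdc7a was 0.263 of that of Yap1. That scale called 74 genes in KD, 87 in OE and 40 between controls, with 5 and 3 genes over the 7 lists. The fit over all 12 libraries called 1261 genes in KD and 200 between controls, DESeq2 170 between controls, and the absence of a filter 556 in OE. With the replicate number as a block, 193 genes were called in KD, 12 of them over the 7 lists, and 37 between controls, and no transcript length was called in OE (0). With a mean of at least 200 counts, 4 lengths were called in KD. The control difference of Klhdc7a was -0.49 without passing under upper-quartile factors, a 1 CPM filter, limma-voom and the 12-library fit, -0.17 on log2(TPM + 1) and -0.48 with the block. Leaving out single libraries gave 298 to 1019 genes in KD (without CTR KD replicates 3 and 2), 154 (without CTR OE replicate 3) to 327 in OE, 20 to 420 between controls (without CTR OE replicate 3 and CTR KD replicate 2), 13 to 25 list genes in KD, and 0 to 2 and 0 to 3 called lengths in KD and OE. The control differences then ranged from -0.55 to -0.41 for Klhdc7a, 0.22 to 0.25 for Tgm1 and -0.22 to -0.074 for Mme. Beyond these, the cause was not tested. With 3 libraries a group, the gain of Klhdc7a moved between 0.43 and 0.77 by the library left out.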
